A study of Mus musculus with 4 samples.

Results

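Serotonin receptors that signal through inhibitory G proteins include those encoded in the mouse by Htr1a, Htr1b, Htr1d, Htr1f and Htr5a. The features were chosen by these symbols in the deposited feature list, and all 5 were found among its 32287 features, which hold 14 serotonin receptor genes in all. Nuclei came from microdissected medial prefrontal cortex of C57BL/6J mice aged 9 weeks and were sequenced singly with 10x Genomics chemistry that reads the ends of polyadenylated transcripts. The groups were DOI (2 samples, 1 female and 1 male) and Saline (2 samples, 1 female and 1 male), with tissue taken 24 hours after the injection. The labels do not say how many mice a sample holds. DOI is a psychedelic agonist of the receptors encoded by Htr2a and Htr2c. All 4 samples expressed scFLARE2, a sensor that frees the transcription factor tTA when blue light and a rise in calcium coincide, and a TRE-mCherry-p2a-bReaChES reporter that tTA switches on. The labels name neither the promoter nor the cell type that the sensor was expressed in.

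All libraries stood in 1 matrix of UMI counts (unique molecular identifiers, each standing for 1 captured RNA molecule). Barcode endings separated 4 libraries, but no source used here says which sample an ending stands for. DOI was therefore not compared with saline, nor female with male mice, and the results below set cell classes side by side within these libraries. The libraries held 3076 to 8327 barcodes and 19968985 to 57947155 UMIs, and 12991 nuclei were kept at a median of 8892 UMIs and 3322 genes. Library 4 stood apart, with 54.0% of its barcodes over the limit of 5% mitochondrial UMIs, against 23.6% to 39.2% in the other libraries. Of the 12974 barcode sequences among kept nuclei, 17 occurred in more than 1 library. Clustering without the members and the other listed genes gave 24 clusters, and fixed markers named 18 classes of 94 to 2467 nuclei. Names ending in "-like" mean resemblance in those markers. They stand for intratelencephalic neurons of the upper layers, of layers 4 and 5 and of layer 6 (L2/3 IT-like, L4-5 IT-like and L6 IT-like), extratelencephalic (L5 ET-like), near-projecting (L5/6 NP-like) and corticothalamic neurons (L6 CT-like), subplate-derived neurons (L6b-like), 4 interneuron classes, and others. The tissue label named prefrontal cortex, and 335 medium spiny neuron-like nuclei, a striatal type marked by Drd1, Drd2 and Ppp1r1b, were also present. Library 4 held 1 of them.

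Receptors of this group couple to Gi and Go proteins, whose alpha subunits slow adenylyl cyclase and whose beta-gamma subunits open GIRK potassium channels, so that serotonin makes a cell less excitable or lowers transmitter release. The receptor of Htr1a sits mainly on cell bodies and dendrites and is also the autoreceptor of serotonin neurons. The receptors of Htr1b and Htr1d act largely on axon terminals, so their RNA lies in the cell body while the protein works at a distance. The receptor of Htr1f is a target of triptan-related migraine drugs, and that of Htr5a is the least studied of the group.

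The members differ in gene structure. In GENCODE M21 on GRCm38, Htr1f (ENSMUSG00000050783) lies on the minus strand at chr16:64924729-65105854, spans 181126 bases and holds 2579 exonic bases in 3 exons, of which 1 is coding. Htr1b (ENSMUSG00000049511) lies on the minus strand at chr9:81628291-81633828, Htr1d (ENSMUSG00000070687) on the plus strand at chr4:136423524-136444398, Htr1a (ENSMUSG00000021721) on the plus strand at chr13:105443639-105448122, and Htr5a (ENSMUSG00000039106) on the plus strand at chr5:27842149-27855088. Htr1a is 1 exon, and the coding sequence of Htr5a is split over 2 exons. Htr1b is overlapped for 2278 bases by D430036J16Rik, an antisense gene on the other strand. Whether the counting used strand, or intronic reads, is not given in the sources used here.

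The promoters of Htr1f, Htr1b and Htr1d are shown because most of the results below turn on these genes. Each window runs from 250 bases before to 50 after a RefSeq start site (GRCm38.p6), 5′ to 3′ on the gene's strand, and capitals mark each GC box, GGGCGG or its reverse complement. The windows lie at chr16:65105735-65106034 (minus), chr9:81633783-81634082 (minus), chr4:136423274-136423573 (plus) and chr4:136424362-136424661 (plus).
Htr1f: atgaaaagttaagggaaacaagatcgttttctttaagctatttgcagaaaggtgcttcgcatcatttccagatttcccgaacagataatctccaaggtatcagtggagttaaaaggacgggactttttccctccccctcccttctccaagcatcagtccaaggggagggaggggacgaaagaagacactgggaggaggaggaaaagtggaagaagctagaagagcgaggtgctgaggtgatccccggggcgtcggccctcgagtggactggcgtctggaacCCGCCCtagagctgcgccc
Htr1b: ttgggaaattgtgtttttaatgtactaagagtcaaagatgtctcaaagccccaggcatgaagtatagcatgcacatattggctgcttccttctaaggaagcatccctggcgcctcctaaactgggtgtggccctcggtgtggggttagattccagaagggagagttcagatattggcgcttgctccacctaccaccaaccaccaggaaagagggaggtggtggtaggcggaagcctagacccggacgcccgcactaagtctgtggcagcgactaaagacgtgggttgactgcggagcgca
Htr1d, start site 1: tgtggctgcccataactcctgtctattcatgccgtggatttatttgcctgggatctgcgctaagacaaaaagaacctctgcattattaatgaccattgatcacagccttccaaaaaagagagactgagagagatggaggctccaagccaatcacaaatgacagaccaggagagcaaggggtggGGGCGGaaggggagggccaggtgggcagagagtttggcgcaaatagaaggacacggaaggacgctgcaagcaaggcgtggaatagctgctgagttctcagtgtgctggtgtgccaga
Htr1d, start site 2: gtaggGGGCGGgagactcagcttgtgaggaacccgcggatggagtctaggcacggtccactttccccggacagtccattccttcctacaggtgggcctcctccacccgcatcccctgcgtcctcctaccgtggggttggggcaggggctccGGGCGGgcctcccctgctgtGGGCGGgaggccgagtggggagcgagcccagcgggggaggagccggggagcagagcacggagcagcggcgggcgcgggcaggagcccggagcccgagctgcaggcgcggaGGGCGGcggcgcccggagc
A GC box was present in the windows of Htr1f, Htr1d and Htr1a and not in those of Htr1b and Htr5a, while 35.66% of 32851 promoters of the same length held it. Neither TATAAA (13.62% of promoters) nor CAGATG (17.15%) was found on either strand in any member's window. The CG pairs numbered 13 for Htr1f, 11 for Htr1b, and 7 and 28 for the start sites of Htr1d. The matches describe letters only.

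Htr1f made up 95.2% of the UMIs of the 5 members, with 33554 UMIs in kept nuclei, and 51.6% of nuclei held at least 1. There were 913 UMIs of Htr1b, 515 of Htr5a, 180 of Htr1a and 101 of Htr1d. Per kilobase of gene these were 185 UMIs for Htr1f, 165 for Htr1b, 39.8 for Htr5a, 40.1 for Htr1a and 4.84 for Htr1d. Per kilobase of exon they were 13010.5 for Htr1f, 193 for Htr1b, 95.8 for Htr5a, 40.1 for Htr1a and 31.6 for Htr1d. The order of Htr1f and Htr1b against the rest was thus the same on both scales, but the gap between Htr1f and Htr1b was large per exonic base and small per gene base. At most 5 UMIs of Htr1b or Htr1d and at most 2 of Htr1a or Htr5a were seen in 1 nucleus, against up to 52 of Htr1f.

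Htr1f was most abundant in deep-layer projection neurons. Its level, in UMIs of the gene per 1000000 UMIs of the class (CPM), was highest in L6 CT-like nuclei at 579 CPM (95% Poisson interval 570 to 589, 15106 UMIs). The 4 libraries gave 587, 573, 598 and 572 CPM there, and among the other named classes only Lamp5-like nuclei of library 3 (756 CPM) were as high. L6 CT-like nuclei held 45.0% of all Htr1f UMIs on 20.4% of all UMIs. L5 ET-like nuclei came next at 453 CPM (442 to 464), with 427, 421, 448 and 497 CPM by library. Intervals here and below cover counting error only, not differences between samples.

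**Figure D1:**
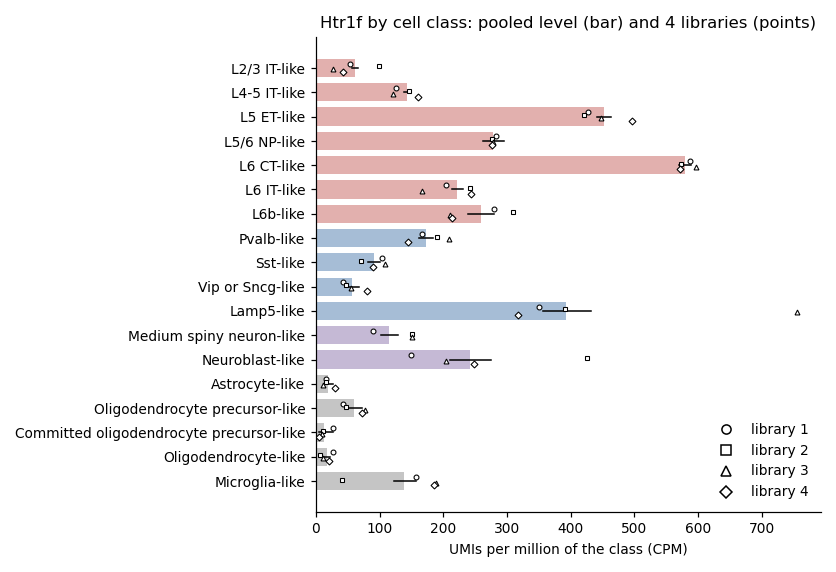
Htr1f level in each named class, in CPM on a linear axis. Bars are pooled over libraries with 95% Poisson intervals, points are libraries (a library with few nuclei of a class is not drawn), and colours separate excitatory (red), inhibitory (blue), medium spiny neuron-like and neuroblast-like (purple) and glial classes (grey). The bar of L6 CT-like nuclei reaches 579 CPM and that of L2/3 IT-like nuclei 60.9 CPM.

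Among the other excitatory neurons, Htr1f was higher in L5/6 NP-like, L6b-like and L6 IT-like nuclei than in L4-5 IT-like and L2/3 IT-like nuclei, with no overlap by library. L5/6 NP-like nuclei had 279 CPM (283, 277, 279 and 277 by library), L6b-like nuclei 259 CPM (279, 309, 210 and 214) and L6 IT-like nuclei 222 CPM (204, 241, 167 and 244). L4-5 IT-like nuclei had 143 CPM (126, 147, 121 and 161). That name joins the marker lists for layer 4/5 and layer 5 intratelencephalic neurons, and its 1 cluster matched the layer 5 list best (Deptor, Il1rapl2 and Rorb). The cluster that matched the layer 4/5 list best, 639 nuclei, stayed unnamed because its L2/3 IT score was close, and it had 74.5 CPM (69.3, 78.0, 58.9 and 88.3). L2/3 IT-like nuclei were lowest at 60.9 CPM (52.8, 99.5, 26.1 and 42.3), and library 2 was the high one. Each subclass was compared with the other named excitatory subclasses pooled. Calls followed a rule of size and not a test. They needed 100 UMIs or more over both sides, levels that differed 2-fold or more, and 1 direction shared by the 4 libraries. In L6 CT-like nuclei Htr1f was called higher, with 579 CPM against 223 CPM (log2 ratio 1.38, 1.34 to 1.41), where 2.46% of 15157 genes were called higher. In L2/3 IT-like nuclei it was called lower, with 60.9 CPM against 367 CPM (log2 ratio -2.59, -2.70 to -2.49), where 5.67% of genes were called lower, and likewise in L4-5 IT-like nuclei, with 143 CPM against 373 CPM (-1.38, -1.44 to -1.33), where 4.15% were, and 2.51% were called higher. L5 ET-like nuclei were above the others in 4 of 4 libraries but below the 2-fold limit (log2 ratio 0.59, 0.55 to 0.63), with 2.99% of genes called higher and 6.56% lower, and L6 IT-like nuclei were below in 4 of 4 (-0.62, -0.67 to -0.56), with 4.81% of genes called lower. The level in L2/3 IT-like nuclei ranged from 28.7 CPM at a clustering resolution of 2.0 to 66.2 CPM with doublets kept. That of L6b-like nuclei was 350 CPM with up to 20% mitochondrial UMIs and 400 CPM with at most 1%. It was 368 CPM with at least 1000 genes per nucleus and 252 CPM with doublets kept. In the first 3 of these settings it lay above that of L5/6 NP-like nuclei (273 to 283 CPM). The causes of these shifts were not tested.

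The 2 clusters of the L6 CT-like class differed in level, without overlap by library. Cluster 3, 1371 nuclei with Cpa6 and Alkal1 among its leading genes, had 615 CPM of Htr1f (603 to 627), and cluster 2, 1096 nuclei with Trbc1 and Garnl3 among its leading genes, had 523 CPM (509 to 538). The libraries lay between 606 and 631 CPM in cluster 3 and between 494 and 541 CPM in cluster 2, at median depths of 10822 and 8841.5 UMIs.

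Among interneurons, Htr1f had its highest level in the Lamp5-like class, which resembles the neurogliaform cells of the upper layers. Lamp5-like nuclei had 393 CPM (357 to 432, 428 UMIs in 112 nuclei), with 351, 390, 756 and 317 CPM by library, the 756 CPM coming from 10 nuclei. Pvalb-like nuclei, the fast-spiking basket cells, had 172 CPM (166, 189, 209 and 144). Sst-like nuclei, the dendrite-targeting cells, had 90.7 CPM (104, 70.7, 108 and 90.4), and Vip or Sncg-like nuclei 56.2 CPM (42.5, 47.2, 54.7 and 79.7). By library, Lamp5-like nuclei lay above the other 3 classes and Pvalb-like nuclei above Sst-like and Vip or Sncg-like nuclei, while the last 2 overlapped. Against the other interneurons, Htr1f was called higher in Lamp5-like nuclei, with 393 CPM against 125 CPM (log2 ratio 1.65, 1.49 to 1.81), with 3.39% of 10364 genes called higher there and 7.35% lower. It was called lower in Vip or Sncg-like nuclei, with 56.2 CPM against 164 CPM (-1.55, -1.84 to -1.27), with 6.4% of genes called lower there and 3.5% higher. No member was called in Pvalb-like nuclei, where 3.36% of genes were called higher and 4.98% lower, or in Sst-like nuclei, where the shares were 2.51% and 3.98%. The call in Vip or Sncg-like nuclei did not hold with up to 20% mitochondrial UMIs, nor with at most 1% (-1.44). At 20% no Lamp5-like class formed, and the Vip or Sncg-like class stood 0.44 above the rest (0.30 to 0.57).

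Excitatory against inhibitory nuclei as a whole, Htr1f was the 1 member of 4 with enough UMIs that was called higher, and none was called lower, with 9.17% of 15800 genes called higher and 7.56% called lower. The median log2 ratio of those 4 members was 0.32, and of all genes -0.13. Htr1f had 303 CPM (309, 305, 249 and 317) in excitatory nuclei, against 148 CPM (145, 152, 187 and 130) in inhibitory nuclei, a log2 ratio of 1.04 (0.97 to 1.10). The ratio lay near the limit of 2-fold, and the call was lost in 6 of 13 alternatives. It was 0.92 without library 4, 0.94 with libraries weighted equally and 0.84 with doublets kept. With up to 20% mitochondrial UMIs it was 0.98, and in the 2 alternatives with at most 1% it was 0.46. The Lamp5-like level was above that of 5 of the 7 excitatory subclasses. In neurons (excitatory and inhibitory) Htr1f had 285 CPM (291, 286, 242 and 298), against 52.5 CPM (49.8, 27.0, 56.5 and 74.9) in non-neuronal nuclei, a log2 ratio of 2.44 (2.32 to 2.57). It was again the 1 member of 4 called higher, with 12.9% of 16571 genes called higher and 25% called lower. With at most 1% mitochondrial UMIs the ratio was -0.85, in a set where 422 nuclei with an excitatory marker score of 1.005 and 569 CPM of Htr1f had been named from haemoglobin genes and placed with the non-neuronal nuclei. Without those nuclei it was -0.30, with 486 CPM in 145 microglia-like nuclei.

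Glial levels of Htr1f were low in astrocyte-like (19.7 CPM), oligodendrocyte-like (16.6 CPM) and committed oligodendrocyte precursor-like nuclei (13.2 CPM), and these 3 overlapped one another by library. Oligodendrocyte precursor-like nuclei had 60.0 CPM (42.0, 47.7, 77.6 and 72.2). Microglia-like nuclei had 139 CPM, with 157, 40.4, 189 and 185 by library. That figure rested on 55 of 554 nuclei, and 16 of those held 5 or more UMIs. The 55 nuclei with an Htr1f UMI had a median of 9670 UMIs, 2402 CPM of the 10 L6 CT markers and 1652 CPM of microglia markers, against a median of 2358 UMIs, 483 CPM and 6346 CPM in the 499 without. Over the 4 libraries the summed L6 CT markers were at 480 to 1589 CPM in microglia-like nuclei, with none of the 10 at 0 over all libraries, and at 5656 to 5884 CPM in L6 CT-like nuclei. The part of neuronal RNA or mixed droplets in the microglial level was not tested. The level moved both ways over the alternatives. It was 21.7 CPM at a resolution of 2.0, 23.1 CPM with doublets kept and 18.1 CPM with up to 20% mitochondrial UMIs, and it was 145 CPM at a resolution of 0.5, 162.5 CPM with at least 1000 genes per nucleus and 486 CPM with at most 1% mitochondrial UMIs. Neuroblast-like nuclei, immature neurons marked by Dcx and Sox11 whose leading genes included Top2a, a gene of dividing cells, had 241 CPM (149, 426, 204 and 248), with an Htr1f UMI in 43 of 209 nuclei, whose own markers stood at 1994 CPM, against 4017 CPM in the 166 without.

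**Figure D2:**
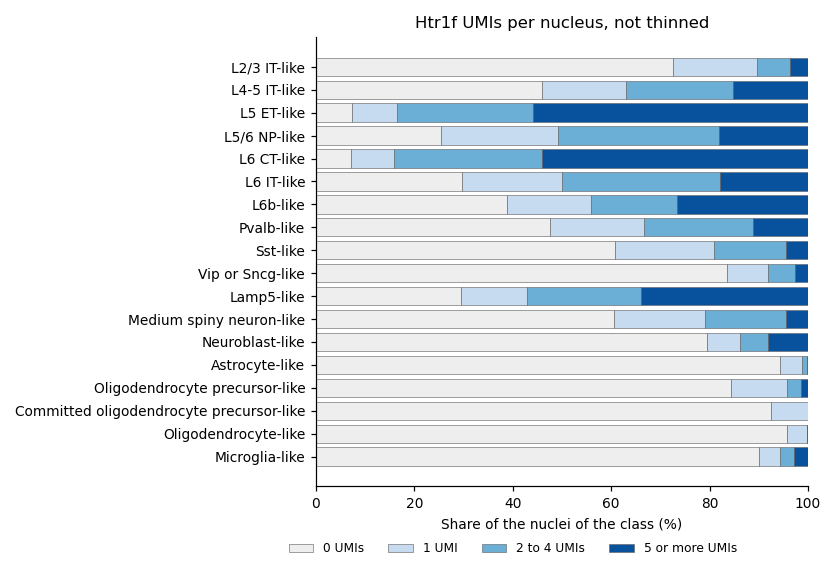
Share of nuclei of each named class (in percent) with 0, 1, 2 to 4, or 5 or more Htr1f UMIs. In L6 CT-like and L5 ET-like nuclei 54.0% and 56.0% held 5 or more, and in oligodendrocyte-like nuclei 95.7% held none; classes differ in depth, so the shares are not levels.

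Counted by nucleus, Htr1f was seen in nearly every L6 CT-like and L5 ET-like nucleus and in a minority of the upper-layer ones. An Htr1f UMI was found in 92.9% of L6 CT-like nuclei at a median depth of 9855 UMIs, in 92.7% of L5 ET-like nuclei at 13965 UMIs, in 70.5% of Lamp5-like nuclei at 8667.5 UMIs and in 27.4% of L2/3 IT-like nuclei at 10549 UMIs. In oligodendrocyte-like nuclei, taken as the background, it was 4.32% at 2693 UMIs. With each nucleus thinned to 1500 UMIs, which left out 247 shallower nuclei, the shares were 54.2% for L6 CT-like, 45.8% for L5 ET-like, 42.9% for Lamp5-like, 7.16% for L2/3 IT-like and 1.72% for oligodendrocyte-like nuclei, the same order. L6b-like nuclei were mixed, with 38.8% holding none and 26.6% holding 5 or more.

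Htr1b, the terminal receptor, was highest in medium spiny neuron-like nuclei, followed by L2/3 IT-like nuclei, whose range by library overlapped those of Lamp5-like and L6 IT-like nuclei. Medium spiny neuron-like nuclei had 36.4 CPM (29.4 to 44.5, 95 UMIs), with 37.0, 24.3 and 50.1 CPM in libraries 1 to 3 and 2 UMIs in the 1 nucleus of library 4. L2/3 IT-like nuclei had 15.6 CPM (13.5 to 18.0, 199 UMIs), with 15, 15, 12.5 and 18.3 by library. L6 IT-like nuclei had 10.6 CPM (12.2, 10.7, 15.7 and 7.47), L5 ET-like 8.75 CPM (7.15, 8.58, 11 and 9.49) and L4-5 IT-like 6.31 CPM (7.16, 7.84, 5.0 and 5.0). These 3 overlapped by library. L6 CT-like nuclei, highest for Htr1f, had 3.53 CPM of Htr1b (3.24, 4.84, 3.03 and 3.01), and L6b-like and L5/6 NP-like nuclei had 4 UMIs each, at 1.68 and 1.04 CPM.

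Against the other excitatory subclasses, Htr1b was called higher in L2/3 IT-like nuclei, with 15.6 CPM against 6.13 CPM (log2 ratio 1.35, 1.11 to 1.59), where 3.93% of genes were called higher. That call was lost in 3 of 14 alternatives. The ratio was 0.82 with at most 1% mitochondrial UMIs, with or without the nuclei named from haemoglobin genes. When thinned to 1500 UMIs it was 1.61, over the 2-fold limit, so another part of the rule was not met. In L6 CT-like nuclei Htr1b was called lower, with 3.53 CPM against 9.00 CPM (-1.35, -1.68 to -1.03), where 7.54% of genes were. This call was lost in 1 of 14 alternatives, at -1.25 when thinned. Htr1b was also called lower in L5/6 NP-like nuclei (-2.89, -4.77 to -1.53, 9.71% of genes) and in L6b-like nuclei (-2.18, -4.06 to -0.82, 10.5% of genes), both on 4 UMIs. In L6 IT-like nuclei the ratio was 0.61 (0.32 to 0.88) in 4 of 4 libraries and below the 2-fold limit. Over all 7 excitatory subclasses, the 5 members made 35 comparisons, of which 28 had 100 UMIs. Of these, 2 were called higher and 5 lower, and all 7 calls belonged to Htr1f and Htr1b. By subclass, 1.72% to 4.54% of all genes were called higher and 4.15% to 10.5% lower. The comparisons share nuclei, since each subclass is on the other side of the rest. Both genes were called in L2/3 IT-like and in L6 CT-like nuclei, in opposite directions to each other.

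**Figure D3:**
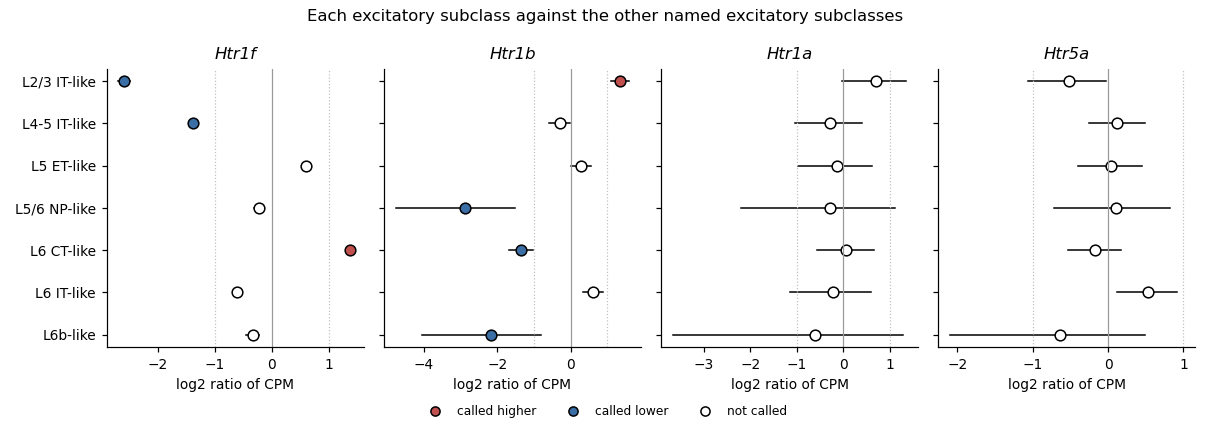
Log2 ratio of CPM of each excitatory subclass over the other named excitatory subclasses, for the 4 members with at least 100 UMIs, with exact conditional binomial 95% intervals. Filled points were called (red higher, blue lower) and dotted lines mark 2-fold. Htr1f and Htr1b lie on opposite sides in L2/3 IT-like (-2.59 and 1.35) and L6 CT-like nuclei (1.38 and -1.35).

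In inhibitory nuclei Htr1b was sparse, with 49 UMIs in all and 13 of them in the 112 Lamp5-like nuclei (11.9 CPM, 6.36 to 20.4). The ratio of excitatory to inhibitory nuclei was 0.91 (0.49 to 1.36), above 0 in 4 of 4 libraries and not called. D430036J16Rik, the antisense partner, had 32.2 CPM in medium spiny neuron-like nuclei, 25.1 CPM in L2/3 IT-like and 4.41 CPM in L6 CT-like nuclei. Its levels thus had the same top 2 classes as Htr1b. The 2 genes lie on opposite strands, and whether the counting told their reads apart where they overlap is not given in the sources used here.

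Htr1d had its highest level in L6b-like nuclei, on few counts. L6b-like nuclei held 43 of the 101 UMIs, at 18.0 CPM (13.1 to 24.3), with 18.4, 10.8, 22.7 and 22.2 CPM by library. The 43 UMIs came from 34 of 188 nuclei, 18.1%, at a median depth of 11769.5 UMIs. The next class, medium spiny neuron-like, had 12 UMIs and 4.59 CPM (4.54, 4.56 and 5.01 in libraries 1 to 3), and libraries of the first 2 classes did not overlap. L6 CT-like nuclei, 2467 of them, held 12 UMIs (0.46 CPM), 5 of which were in 1 nucleus. L6 IT-like nuclei held none among 12677693 UMIs, which allows up to 0.237 CPM. In L6b-like nuclei against the other excitatory subclasses the levels were 18.0 and 0.347 CPM, a log2 ratio of 5.70 (5.0 to 6.42), higher in 4 of 4 libraries (6.77, 3.9, 5.95 and 6.86). It was not called, because the 74 UMIs were under the minimum of 100, and it was called with a minimum of 20. Htr1d in L6b-like nuclei ranged from 12.1 to 24.8 CPM over the alternatives tried and was its highest class in all 13 of them.

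The other members were not called higher in L6b-like nuclei, and Htr1b was called lower, where 2.94% of genes were called higher. Htr1f was at 259 against 326 CPM (log2 ratio -0.33) and Htr5a at 2.52 against 3.92 CPM (-0.64, -2.10 to 0.50). The Htr1f level in L6b-like nuclei depended on the setting, up to 400 CPM with at most 1% mitochondrial UMIs. Of the other serotonin receptor genes, Htr2a was called higher at 138 against 38.4 CPM (1.85), while Htr2c (-2.88), Htr4 (-2.30) and Htr6 (-2.15, on 1 UMI in L6b-like nuclei) were called lower, where 10.5% of all genes were. Within L6b-like nuclei, fewer of those with Htr1d also held Htr1f. An Htr1f UMI was present in 12 of 34 nuclei with Htr1d (35.3%), against 103 of 154 nuclei without (66.9%), at median depths of 13117.5 against 11396 UMIs. The shares were 30.0%, 50%, 66.7% and 26.7% with Htr1d and 72.0%, 73.8%, 66.7% and 56.6% without, in libraries 1 to 4, so library 3, with 3 nuclei with Htr1d, showed no gap. This split of nuclei has no test.

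**Figure D4:**
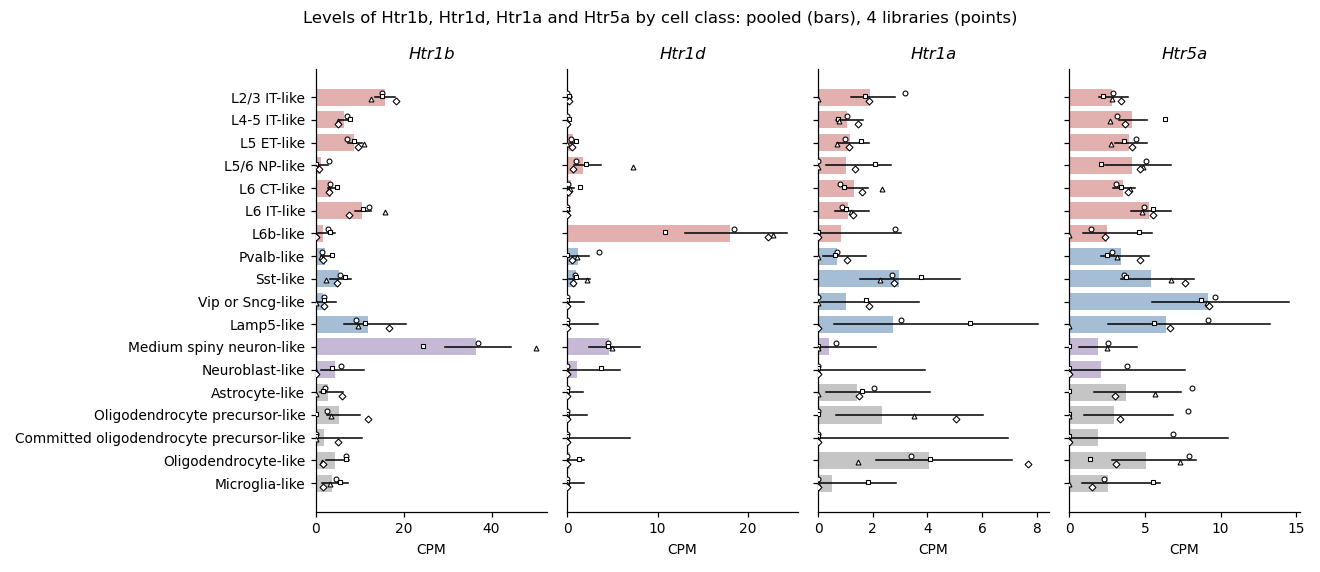
Levels of Htr1b, Htr1d, Htr1a and Htr5a in each named class, in CPM, each panel on its own linear axis. Bars are pooled over libraries with 95% Poisson intervals and points are libraries (a library with few nuclei of a class is not drawn). Htr1b peaks in medium spiny neuron-like nuclei (36.4 CPM) and Htr1d in L6b-like nuclei (18.0 CPM), while all neighbouring classes of Htr1a and Htr5a overlap by library.

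Htr1a and Htr5a showed no class that stood clear of its neighbours. Htr1a, the somatodendritic receptor, had 180 UMIs in 172 nuclei and was highest in oligodendrocyte-like nuclei, at 4.07 CPM (2.10 to 7.11, 12 UMIs), with 3.41, 4.09, 1.47 and 7.68 CPM by library. Sst-like nuclei followed at 2.97 CPM (1.53 to 5.18, 12 UMIs), with 2.72, 3.77, 2.25 and 2.78. The excitatory subclasses lay between 0.839 CPM in L6b-like and 1.89 CPM in L2/3 IT-like nuclei. All 17 pairs of neighbouring classes overlapped by library, and the oligodendrocyte-like class was the highest in 8 of 13 alternatives. In excitatory nuclei Htr1a had 1.35 CPM, against 1.62 CPM in inhibitory nuclei (log2 ratio -0.27, -0.94 to 0.47), an interval that includes 0. No call was made for Htr1a in any comparison.

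Htr5a had 515 UMIs in 485 nuclei and was spread over neuronal and glial classes. Its highest level was 9.19 CPM (5.45 to 14.5, 18 UMIs) in Vip or Sncg-like nuclei, with 9.66, 8.74, 9.12 and 9.26 CPM by library. Lamp5-like (6.43 CPM), Sst-like (5.44 CPM) and L6 IT-like nuclei (5.28 CPM) came next, and all 17 neighbouring pairs overlapped by library. Vip or Sncg-like nuclei were the highest class in 13 of 13 alternatives, at 8.20 to 14.4 CPM. In excitatory nuclei Htr5a had 4.0 CPM, against 5.17 CPM in inhibitory nuclei (log2 ratio -0.37, -0.75 to 0.02), below 0 in 4 of 4 libraries. Vip or Sncg-like nuclei stood 1.04 (0.18 to 1.85) above the other interneurons and Pvalb-like nuclei 0.96 below (log2 ratio -0.96, -1.79 to -0.17), each in the same direction in 4 libraries on 67 UMIs, too few for a call. In neurons Htr5a had 4.13 CPM, against 3.65 CPM in non-neuronal nuclei (0.18, -0.31 to 0.70).

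The other genes of the pathway give the setting of the receptors. Of 5 Gi/o alpha subunit genes, none was called between excitatory and inhibitory nuclei (median log2 ratio 0.06), and 2 were called lower in neurons than in non-neuronal nuclei, where 25% of all genes were, Gnai2 at 12.6 against 43.5 CPM (-1.79) and Gnao1 at 271 against 712 CPM (-1.39). Of the 3 GIRK channel genes with 100 UMIs, Kcnj6 was called higher in excitatory nuclei, at 379 against 172 CPM (1.14), as Htr1f was. Kcnj6 and Kcnj3 were both called higher in neurons than in non-neuronal nuclei (2.33 and 1.78), where 12.9% of all genes were. In L6 CT-like nuclei, where Htr1f peaked, no Gi/o alpha or GIRK gene was called. There, of 12 beta and gamma subunit genes, Gng12 was called higher at 224 against 70.7 CPM (1.66) and Gng7 lower at 8.17 against 23.8 CPM (-1.54). Of 8 adenylyl cyclase genes, which Gi proteins inhibit to differing degrees, Adcy8 had 41.7 CPM in L6 CT-like nuclei, against 107 CPM in the others, and was called lower (-1.35). The medians of these 2 lists there were 0.11 and 0.29, against 0.04 over all genes. Gng12 was also called lower in L2/3 IT-like nuclei, with 21.4 CPM against 129 CPM (-2.59), where Htr1f was low.

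Of the 6 other serotonin receptor genes with 100 UMIs, 3 were called lower in L6 CT-like nuclei, where 7.54% of all genes were called lower and 2.46% higher. These were Htr2c at 5.91 against 73.7 CPM (log2 ratio -3.64), Htr2a at 9.51 against 53.5 CPM (-2.49) and Htr4 at 13.3 against 48.5 CPM (-1.87). Htr7, which couples to Gs, was called higher there at 9.09 against 2.93 CPM (1.63). In Lamp5-like nuclei Htr2a was called higher together with Htr1f, at 102 against 45.3 CPM (1.17), and Htr2c lower at 36.7 against 144 CPM (-1.97). Of 9 genes of serotonin synthesis, transport and breakdown, 4 had 100 UMIs among excitatory subclasses. Slc29a4, a low-affinity monoamine transporter, was called higher in L2/3 IT-like nuclei, with 5.50 CPM against 0.733 CPM (2.91), and lower in L6 CT-like nuclei, with 0.268 CPM against 1.84 CPM (-2.78), the same pair of calls as Htr1b. It was listed at 0 in L6b-like nuclei, where Htr1b was called lower too. These comparisons share their nuclei with those of the members. Of 10 genes for receptor partners, arrestins and repressors of Htr1a found among the features, Hes1, a transcriptional repressor, was the 1 called in excitatory against inhibitory nuclei (14.4 against 5.64 CPM, 1.35).

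The members were also compared by the TRE reporter, which tTA freed by the sensor switches on. A nucleus without a reporter UMI counted as negative, whether or not its cell held the sensor. A nucleus counted as reporter-positive with at least 1 reporter UMI, which held for 1126 nuclei (8.67%), and 5 named classes had at least 50 such nuclei. In these 5 classes the share ran from 8.48% (L6 IT-like) to 12.8% (L2/3 IT-like). In glial classes it ran from 3.91% (oligodendrocyte-like) to 8.51% (committed oligodendrocyte precursor-like), and it was 12.3% in unnamed non-neuronal nuclei. A reporter UMI was thus not confined to neurons. TREmcherry and tTA were among the leading genes of an unnamed non-neuronal cluster of 103 nuclei, whose best match was leptomeningeal fibroblasts. Of 9 comparisons with 100 UMIs, none was called higher and 1 lower. Htr1b in L5 ET-like nuclei had 4.56 CPM (7 UMIs) in 88 reporter-positive nuclei, against 9.24 CPM (121 UMIs) in reporter-negative nuclei, a log2 ratio of -1.02 (-2.37 to 0.07), where 0.714% of 10089 genes were called lower and 0.0297% higher. In the other 4 classes no member was called, and the genes called higher and lower were 0.08% and 0.37% in L2/3 IT-like, 0.0542% and 0.343% in L4-5 IT-like, 0.0339% and 0.609% in L6 CT-like, and 0.081% and 0.912% in L6 IT-like nuclei. The interval of Htr1b in L5 ET-like nuclei reached 0, and libraries 1 and 3 had no UMI of it in 12 and 3 positive nuclei. That call was lost without library 1, 2 or 4. Htr1f in L2/3 IT-like nuclei had 34.5 CPM in reporter-positive nuclei, against 65.1 CPM in reporter-negative nuclei (-0.92, -1.32 to -0.54), lower in 3 of 4 libraries and not called. In L4-5 IT-like nuclei Htr1f had 107 CPM in reporter-positive nuclei, against 148 CPM in negative ones (-0.47, -0.66 to -0.28, 4 of 4 libraries). The L5 ET-like values were 395 against 459 CPM (-0.22, -0.34 to -0.10, 4 of 4) and the L6 CT-like values 619 against 575 CPM (0.11, 0.03 to 0.18, 3 of 4). L6 IT-like nuclei had 257 against 219 CPM (0.23, 0.05 to 0.41), with the libraries split 2 and 2. Positive nuclei had more UMIs, at medians of 11182.5 against 10483 in L2/3 IT-like nuclei. Positive nuclei also came unevenly from the libraries, with 157, 409, 53 and 507 in libraries 1 to 4.

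**Figure D5:**
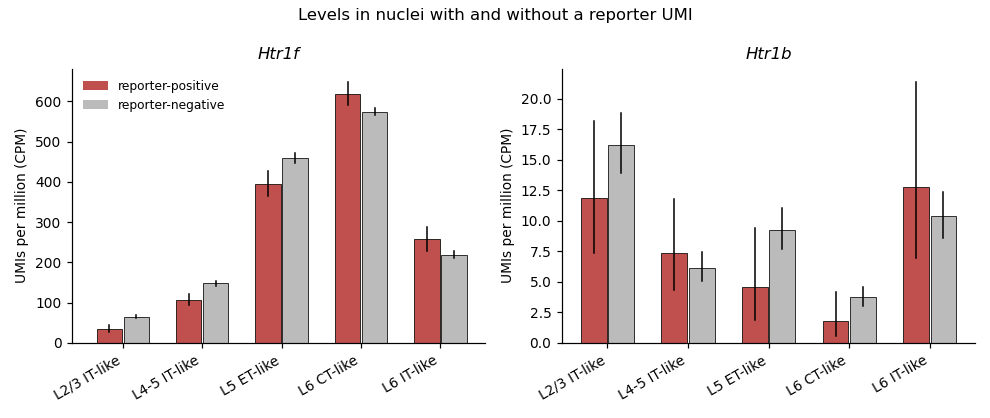
Htr1f and Htr1b levels (CPM) in reporter-positive nuclei (red, left) and reporter-negative nuclei (grey, right) of 5 excitatory classes, with 95% Poisson intervals. Htr1f stood at 34.5 against 65.1 CPM in L2/3 IT-like nuclei and 619 against 575 CPM in L6 CT-like nuclei; intervals of Htr1b overlap in each class.

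At least 1 of the 5 receptors was seen in 56.0% of kept nuclei and more than 1 in 6.89%. Without Htr1f, 11.2% of nuclei held any member. In oligodendrocyte-like nuclei 8.13% held at least 1 at a median of 2693 UMIs, and 4.22% held a member other than Htr1f. That class had the highest Htr1a level, so it is not a plain background for the 5 members together. L5 ET-like nuclei had most overlap, with 176 of 949 nuclei (18.5%) holding more than 1 member at a median of 13965 UMIs, and L6 CT-like nuclei had 193 of 2467 (7.82%). In L2/3 IT-like nuclei, Htr1f was seen in 26 of 153 nuclei with Htr1b (17.0%), against 281 of 968 without (29.0%), with median depths of 10717 and 10516 UMIs. By library the shares were 14.7%, 12.0%, 50% and 13.2% with Htr1b and 25.7%, 35.1%, 28.2% and 26.6% without, so library 3, with 16 nuclei with Htr1b, went the other way. In medium spiny neuron-like nuclei Htr1f was seen in 37 of 75 nuclei with Htr1b (49.3%), against 36.5% of those without, and the nuclei with Htr1b were deeper there (7641 against 6365 UMIs).

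Across the 18 named classes, the genes whose levels were most like a member's were ranked by Pearson's r of log2(CPM + 1) among 10920 genes with at least 500 UMIs. The points share libraries and differ in depth, so the values are descriptions. Htr1f was most like Kcnh7 (r = 0.886), a potassium channel gene, Phtf2 (0.877) and Snap25 (0.877), the synaptic vesicle fusion protein. Htr1b was most like Kcng3 (0.791) and Spata16 (0.776), followed by Tesc (0.776) and Akap5 (0.764), an anchor protein for protein kinase A. For Htr1d these were Focad (0.724) and Olfr115 (0.721), for Htr1a Gclm (0.755) and Zfp74 (0.725), and for Htr5a Slc19a2 (0.759) and Adra1b (0.741), an adrenergic receptor gene. Among the members themselves r lay between -0.363 (Htr1d with Htr5a) and 0.601 (Htr1a with Htr5a), and Htr1f with Htr1b gave 0.145.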

How the data were processed

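Nuclei of mouse medial prefrontal cortex were profiled with 10x Genomics 3' chemistry in 4 samples. The authors deposited 1 matrix of raw UMI counts made with Cell Ranger 7.1.0, per the file headers, on mm10 with 2 added features, TREmcherry and tTA, per the submitters' processing notes and the feature list. Whether intronic reads or strand were used is not given in the sources used here. Libraries were read from the 4 barcode endings, which no source ties to a sample.

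Limits of 500 genes, 800 UMIs and 5% mitochondrial UMIs removed 9132 of 22402 barcodes. Scrublet, run per library through scanpy 1.11.5, then removed 279 nuclei scoring above 0.25. After scaling each nucleus to 10000 UMIs and taking logs, 2000 variable genes without the listed genes gave 30 principal components, 15 neighbours and Leiden clusters at resolution 1.0. Clusters were named from 30 marker lists, with at least 3 markers enriched 2-fold at 10 CPM or more. A cluster stayed unnamed when a second type scored above 0.75 of the best or when its leading genes or depth went against the name.

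UMIs were summed per class and library. Levels have exact Poisson intervals, shares exact Clopper-Pearson intervals and ratios exact conditional binomial intervals, all at 95% and for counting error only. Since no source ties the libraries to samples, the matrix was treated as 1 sample, and ratios were also taken within each library. No p-value was computed. A gene at 0 was given the limit that 3 counts allow. Ratios used all genes with at least 100 UMIs. The rule was tried on simulated Poisson counts with rates shared by all libraries, so it was not checked against differences between libraries. Gene models were GENCODE M21, and promoters came from RefSeq for 5 of 5 members. Named are all members, at most 3 called genes of each other list with the largest ratios, other serotonin receptors set beside a member, and the genes most like each member. The members and the lists were chosen with earlier results of these data known.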

Additional observations from a re-analysis of the deposited data

Results flagged for a closer look

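Of 19 sets of 4 library values examined, 2 held a library far from the other 3, and chance flags about 1 set in 20. Htr1f in Lamp5-like nuclei stood at 756 CPM in library 3, on 10 nuclei, against 317 to 390 CPM in the other libraries. Htr1f in medium spiny neuron-like nuclei stood at 90.2 CPM in library 1, on 225 nuclei, against 150 to 158 CPM in the others, of which library 4 held 1 nucleus. The treatment and sex of these libraries are not known here.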

How the results depend on the processing

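The 40 log2 ratios of members were recomputed under alternatives to give 535 values. Of these, 423 lay within the counting interval of the main ratio and 109 outside it. The other 3 were called ratios that changed sign. Sign changes of ratios that were not called were not counted apart. The 11 called ratios gave 143 values, and 15 of these lost the call. With a mitochondrial limit of 20%, the members called were 0 between excitatory and inhibitory nuclei, 0 among inhibitory subclasses and 0 for the reporter, and Htr1f in Vip or Sncg-like nuclei turned to 0.44. With a limit of 1% they were 0 between neurons and non-neuronal nuclei, 1 among inhibitory subclasses and 0 for the reporter, and Htr1f in neurons against non-neuronal nuclei was -0.85. Without the nuclei named from haemoglobin genes, an alternative chosen after seeing the data, those counts were again 0, 1 and 0 and the ratio was -0.30. With doublets kept, the counts were 0 between excitatory and inhibitory nuclei and 2 for the reporter. Thinning to 1500 UMIs gave 3 calls among excitatory subclasses, against 7. A minimum of 20 UMIs gave 2 for neurons, 11 among excitatory subclasses, 8 among inhibitory subclasses and 3 for the reporter, and 1 UMI on each side gave 2 for neurons, 8 among inhibitory subclasses and 3 for the reporter. A ratio of at least 1.5 gave 2 between excitatory and inhibitory nuclei and 2 for neurons. The causes were not tested. Shares of all genes called were taken under the main rule only, not under these alternatives or with a library left out. The counts of members under alternatives therefore have no share over all genes to be read against.

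Leaving out 1 library gave 0 (without library 4) to 2 (without library 2) members called between excitatory and inhibitory nuclei, 7 to 8 among excitatory subclasses, 2 to 3 among inhibitory subclasses and 0 to 1 for the reporter. Htr1f stayed called higher in L6 CT-like (1.33 to 1.63 over 14 alternatives) and Lamp5-like nuclei (1.40 to 2.08 over 11), and lower in L2/3 IT-like (-3.65 to -2.39) and L4-5 IT-like nuclei (-1.51 to -1.25, 14 each). At resolution 0.5 no comparison of inhibitory subclasses formed. No paired analysis was possible because the barcode endings carry no replicate number of the DOI and Saline groups, while class ratios were taken within each library without a test. Counts of Htr1a, Htr1d and Htr5a limit their intervals most.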
